A study of Mus musculus with 6 samples.

Results

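Transcripts of 5 myeloid C-type lectin receptors, Cd209f, Clec4e, Cd209a, Clec10a and Clec4b1, were followed in mouse osteoclast precursors cultured with or without sRANKL. They were taken by symbol from a deposited list of probe sets selected as changed between these dishes. They make up 5 of its 522 named genes, and 1 probe set stood for each. Clec10a appears in that list under its older symbol Mgl1 and was matched by its Entrez number, 17312. The difference between the dishes had therefore chosen the members, and it is given below as a description without a test. Gene expression was measured on 6 Affymetrix Mouse Gene 1.0 ST arrays from 3 independent experiments. In each experiment, marrow cells of 3 SV129/BL6 mice, labelled WT, were pooled and kept for 48 hours in 10 ng/ml M-CSF, and the precursors (MOPs) were split between a pair of dishes. One dish received 20 ng/ml M-CSF with 200 ng/ml sRANKL (M-CSF + sRANKL, n = 3), the other 20 ng/ml M-CSF alone (M-CSF alone, n = 3), and RNA was extracted after 2 days. The sRANKL was purified from a construct in the bacterial vector pGEX-4T-1, and the sample records put the MOPs enriched on the density gradient at about 30%. The RNA is that of a whole dish, so fewer cells of a type and less RNA per cell cannot be told apart.

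C-type lectin receptors are surface proteins of monocytes, macrophages and dendritic cells that recognise sugars and lipids of microbes and of damaged cells. Some, such as Clec4e and Clec4b1, carry no signalling motif of their own and pair with the adaptor FcRγ, which passes the signal to the kinase Syk and the adaptor CARD9. Others, such as Cd209a and Clec10a, mainly bind and take up glycoproteins. FcRγ and Syk also serve the co-stimulatory signals that osteoclast precursors need beside RANKL.

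Cd209f and Clec4e were higher with sRANKL, by 15.2-fold and 3.30-fold. Cd209a, Clec10a and Clec4b1 were lower, by 6.80-fold, 6.08-fold and 5.78-fold. For each of the 5 genes the arrays of the groups did not overlap. The same held for 77.8% of the 2859 rows of the table, 45.2% with the sRANKL arrays higher and 32.6% with them lower. The limma fit called 78.2% of those rows changed at an adjusted p under 0.05, 44.9% higher and 33.2% lower. Some rows held identical values, mostly among the lower ones. With identical rows counted once, 1283 rows were called higher and 835 lower, against 1285 and 950. Nothing was read from these counts for the members, because their list was chosen on the same contrast. Clec4e was the member nearest to the 2-fold limit of the list.

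**Figure D1:**
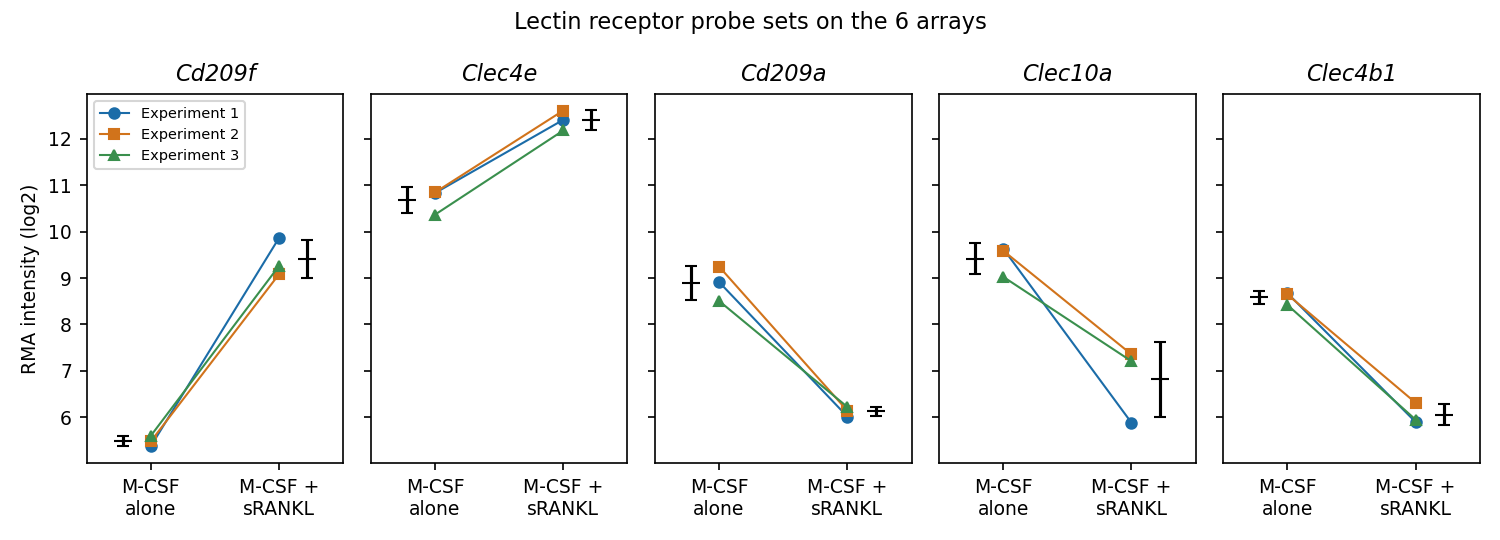
RMA intensity (log2, vertical axis) of the 5 lectin probe sets with M-CSF alone and with M-CSF + sRANKL, where lines join partner dishes of Experiments 1, 2 and 3 and black marks give the mean and SD of each group (n = 3). Cd209f and Clec4e were higher with sRANKL in each experiment and the other 3 genes lower, and the Clec10a dish of Experiment 1 with sRANKL lay below its group.

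Cd209f encodes SIGNR8, one of the mouse relatives of the human dendritic cell receptor DC-SIGN. Its RMA intensity with M-CSF + sRANKL was 935 in Experiment 1, 543 in Experiment 2 and 615 in Experiment 3. With M-CSF alone it was 41.5, 44.6 and 48.5 in the same order. The M-CSF alone values were close together and lay below the intensity of 75.1 to 83.0 under which 5% of the rows of those arrays fell, so the gene was near the dim end of the table without sRANKL. On the log2 scale Cd209f went from 5.48 ± 0.11 (SD, n = 3) to 9.41 ± 0.41 (SD, n = 3), a difference of 3.92 (standard error 0.22). The dish of Experiment 1 with sRANKL was the brightest, and the increase over its partner was 22.5-fold there against 12.2-fold and 12.7-fold in Experiments 2 and 3. A window of 300 bases (RefSeq, GRCm38.p6, chr8:4105715-4106014, minus strand) is shown because Cd209f had the widest difference of the 5 genes. It runs from 250 bases before to 50 bases after the start site used in the RefSeq table, which for Cd209f lies 74 bases inside the outer bound of the gene and for the other windows at that bound. It is printed with the letters of the motifs described further on in capitals.
Cd209f: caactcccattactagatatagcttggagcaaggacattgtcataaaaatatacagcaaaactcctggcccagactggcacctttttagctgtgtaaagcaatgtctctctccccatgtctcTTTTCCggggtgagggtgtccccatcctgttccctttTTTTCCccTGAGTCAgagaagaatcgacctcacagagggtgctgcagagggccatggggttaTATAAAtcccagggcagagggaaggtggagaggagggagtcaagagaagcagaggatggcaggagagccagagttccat

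Clec4e encodes Mincle, a receptor for the mycobacterial cord factor and for a protein released by dying cells. Its intensity with M-CSF + sRANKL was 5455, 6266 and 4649 in Experiments 1, 2 and 3. With M-CSF alone it was 1824, 1843 and 1321, so the transcript was already well above the dim end of the table in the absence of sRANKL. The log2 intensity was 12.40 ± 0.22 (SD, n = 3) against 10.68 ± 0.27 (SD, n = 3), a difference of 1.72 (standard error 0.20). Both dishes of Experiment 3 were the lowest of their groups. The increase between partners was 2.99-fold, 3.40-fold and 3.52-fold, the narrowest spread between experiments among the 5 genes (SD 0.12 of the log2 differences). Its start region (chr6:123289822-123290121, minus strand, same source) is shown for comparison with that of Clec4b1, a lower gene of the same cluster.
Clec4e: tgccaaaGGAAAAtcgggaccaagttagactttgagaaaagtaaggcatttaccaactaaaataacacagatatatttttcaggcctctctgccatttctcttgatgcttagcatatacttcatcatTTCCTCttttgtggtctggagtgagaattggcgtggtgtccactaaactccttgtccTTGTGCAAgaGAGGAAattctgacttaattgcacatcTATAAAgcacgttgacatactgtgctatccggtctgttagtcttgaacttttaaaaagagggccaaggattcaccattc

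Cd209a encodes the mouse protein CIRE, named as the DC-SIGN homologue and used as a marker of monocyte-derived dendritic cells. Its intensity with M-CSF alone was 483, 609 and 364 in Experiments 1, 2 and 3. With M-CSF + sRANKL it was 64.6, 70.5 and 74.6. The values with sRANKL lay within a 1.16-fold range and under the dimmest 5% of rows of those arrays (68.98, 80.72 and 77.52), whereas those with M-CSF alone spread over a 1.67-fold range. The log2 difference was -2.77 (standard error 0.21). Partner dishes differed by 7.47-fold, 8.63-fold and 4.88-fold, and the smaller difference of Experiment 3 went with its lower M-CSF alone dish. Its start region (chr8:3748935-3749234, minus strand) is shown beside that of Cd209f, a member of the same family that went the other way.
Cd209a: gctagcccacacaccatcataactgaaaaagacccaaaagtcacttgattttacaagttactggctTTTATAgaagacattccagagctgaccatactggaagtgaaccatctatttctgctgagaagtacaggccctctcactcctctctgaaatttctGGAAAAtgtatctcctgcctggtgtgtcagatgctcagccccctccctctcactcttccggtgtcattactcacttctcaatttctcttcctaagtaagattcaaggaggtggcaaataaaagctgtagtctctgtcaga

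Clec10a encodes MGL1, a receptor of macrophages and dendritic cells for sugars that end in galactose or N-acetylgalactosamine. Its intensity with M-CSF alone was 796, 771 and 522 in Experiments 1, 2 and 3. With M-CSF + sRANKL it was 58.9, 164 and 148. The sRANKL dish of Experiment 1 was more than 2-fold below both others, which was so for 1 of the 181 lower named genes, Clec10a itself, a comparison chosen after the values were seen. That value lay under the dimmest 5% of rows of its array (68.98), while the other 2 lay above that level on theirs (80.72 and 77.52). On the log2 scale Clec10a went from 9.42 ± 0.34 (SD, n = 3) without sRANKL to 6.81 ± 0.81 (SD, n = 3) with it, a difference of -2.60 (standard error 0.40), the least precise of the 5. Partner dishes differed by 13.5-fold in Experiment 1, 4.71-fold in Experiment 2 and 3.53-fold in Experiment 3. Without both arrays of Experiment 1 the log2 difference was -2.03, and Clec10a remained lower in each of the other 2 experiments. The deposited list places this probe set on chromosome 11 over 40419 bases, while the RefSeq gene is 4214 bases long. In RefSeq the stretch from the start of the closely related neighbour Mgl2 to the end of Clec10a is 40712 bases, so the probe set may also take in signal of Mgl2, which was not tested.

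Clec4b1 encodes DCAR, an FcRγ-coupled receptor for mycobacterial phosphatidylinositol mannosides in mice. Its intensity with M-CSF alone was 409, 401 and 343 in Experiments 1, 2 and 3. With M-CSF + sRANKL it was 59.5, 79.4 and 61.7. The range was 1.19-fold without sRANKL and 1.33-fold with it, but all 3 values with sRANKL lay under the dimmest 5% of rows of their arrays, as for Cd209a. The log2 difference was -2.53 (standard error 0.17), and partner dishes differed by 6.88-fold, 5.05-fold and 5.56-fold. Its start region (chr6:123049712-123050011, plus strand) follows.
Clec4b1: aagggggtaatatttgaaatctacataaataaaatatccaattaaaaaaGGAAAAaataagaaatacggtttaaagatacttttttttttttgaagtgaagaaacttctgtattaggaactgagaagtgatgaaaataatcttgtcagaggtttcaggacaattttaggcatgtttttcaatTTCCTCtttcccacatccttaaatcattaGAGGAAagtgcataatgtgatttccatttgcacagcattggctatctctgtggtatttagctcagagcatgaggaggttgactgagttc

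The rising and falling lectins were compared within the experiments. The mean log2 difference of Cd209f and Clec4e was 2.82 and that of Cd209a, Clec10a and Clec4b1 was -2.63, which are 5.46 apart. Within Experiments 1, 2 and 3 the distance was 6.18, 5.25 and 4.94. Experiment 1 thus gave the largest distance, to which Cd209f and Clec10a contributed most, and Clec4e had its smallest increase there. Over the 3 experiments the falling genes differed by no more than 0.23 in their mean log2 difference, but within single experiments they were between 0.66 and 0.97 apart and changed order. The gene that fell furthest was Clec10a in Experiment 1, Cd209a in Experiment 2 and Clec4b1 in Experiment 3. The order of the falling genes was thus within the spread between experiments. Cd209f exceeded Clec4e by 2.91, 1.84 and 1.85 in the log2 difference of the same experiments, so the order of the rising genes was the same in each.

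**Figure D2:**
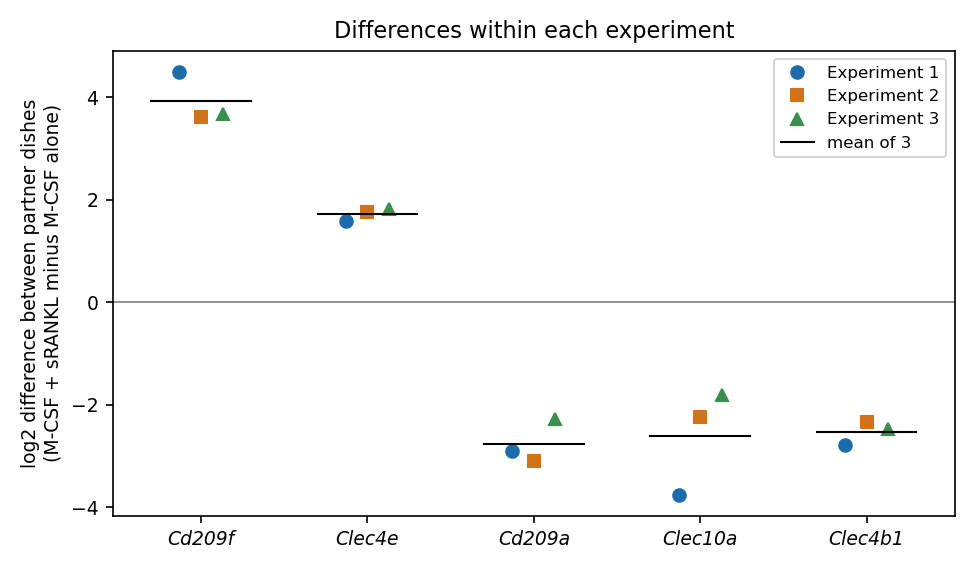
The log2 difference between partner dishes (M-CSF + sRANKL minus M-CSF alone, vertical axis) of each lectin in Experiments 1, 2 and 3, with a bar at the mean of the 3. Points of Clec4e lay close together (SD 0.12), whereas those of Clec10a ran from -3.76 to -1.82.

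The place of single arrays within their groups was also counted. The M-CSF alone array of Experiment 3 was the lowest of its group for 4 of the 5 lectins, all but Cd209f, and for 108 of the 341 higher and 66 of the 181 lower named genes, about the share that any of 3 arrays would have if none stood apart. With sRANKL, the array of Experiment 1 was the lowest of its group for all 3 falling lectins. It was also the lowest for 85 of the 181 lower named genes, a larger share than if none stood apart. The M-CSF alone array of Experiment 1 was the brightest control for 139 of the 341 higher named genes, again a larger share. Among them were 8 at least 2-fold over both other controls, such as the scavenger receptor Marco (293 against 60.3 and 79.1). That array was not the brightest control for Cd209f or Clec4e.

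The 5 lectins lie in 3 gene clusters. They were taken by family symbols, so their shared chromosomes are not independent of that choice. By the deposited list, whose genome build is not given in the sources used here, Cd209a and Cd209f lie on chromosome 8 and Clec4b1 and Clec4e on chromosome 6, and Clec10a lies on chromosome 11. In RefSeq (GRCm38.p6) Cd209a and Cd209f are 354 kb apart with 4 protein-coding genes between them, Cd209e, Cd209d, Cd209b and Cd209c. Cd209g, which encodes SIGNR7, is the next protein-coding gene after Cd209f, 28.4 kb away. Cd209g was higher with sRANKL, as was its neighbour, at 305, 174 and 148 against 56.2, 47.2 and 51.9 in Experiments 1, 2 and 3, and its brightest dish was also that of Experiment 1. On chromosome 6, Clec4b1 stands between Clec4a1, 115 kb away, and Clec4e, 210 kb away. Clec4a3 and Clec4a4 lie between it and Clec4a1, and Clec4a2, Clec4b2, Clec4n and Clec4d between it and Clec4e. Clec4a1, another receptor of the Clec4 cluster, was higher at 2906, 3398 and 3133 against 1245, 868 and 1298. The clusters on chromosomes 6 and 8 thus each held both higher and lower genes, and Clec10a was the only named gene of the chromosome 11 cluster. The genes between them carry no name in the deposited list and were not analysed here. Members of a cluster resemble each other in sequence, so their probe sets may share signal, which was not tested.

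**Figure D3:**
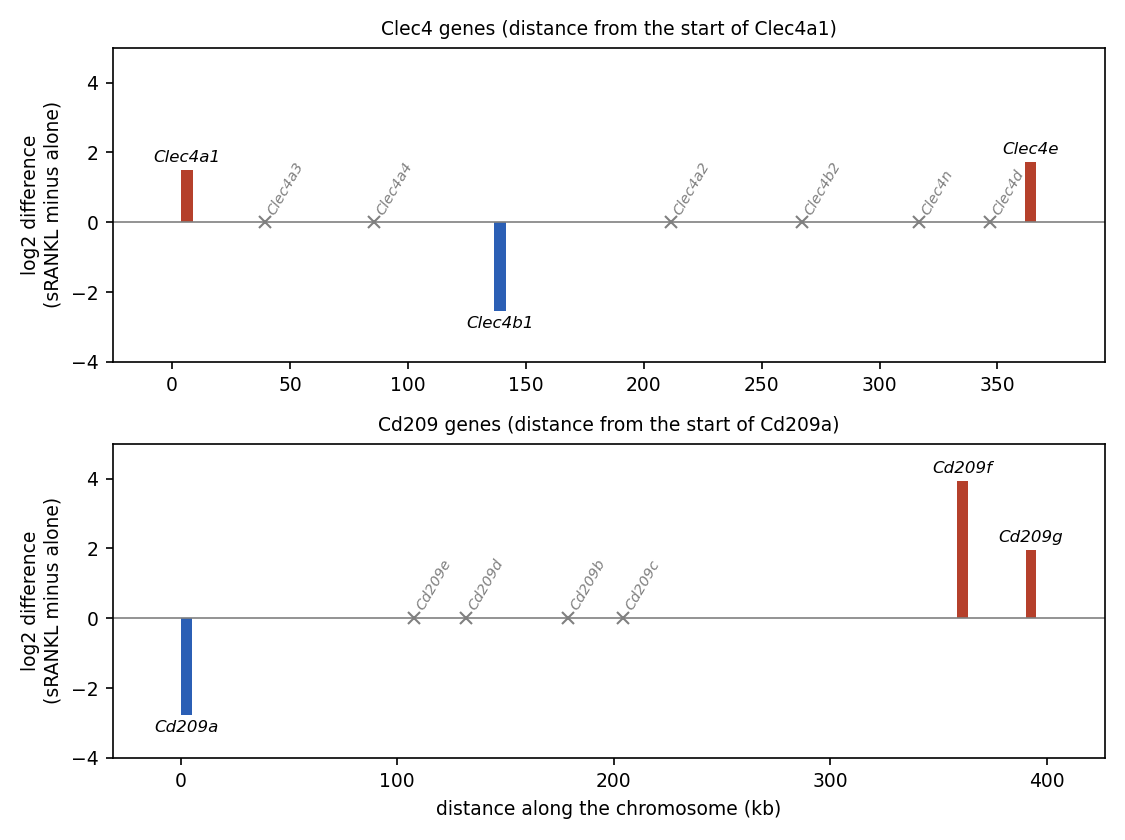
The log2 difference (M-CSF + sRANKL minus M-CSF alone, vertical axis) of the named Clec4 and Cd209 genes against distance along the chromosome in kb (RefSeq order), with red bars for higher, blue bars for lower, and grey crosses for genes with no name in the deposited list. Clec4b1 was lower between 2 higher genes, and Cd209a was lower while Cd209f and Cd209g were higher.

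The 4 start regions printed above were searched on both strands for 7 motifs, none of whose matches overlapped, and positions are those of the first base, counted from the start site of the window as 0 (for Cd209f the inner start site described above). RefSeq start regions of the same length of 27025 genes gave the share that hold each motif. The AP-1 letters TGANTCA were found in Cd209f alone, at -83, and in 7.93% of all regions. The C/EBP letters TTGNNCAA were found in Clec4e alone, at -66, and in 6.47% of all. The PU.1 letters GAGGAA were found in Clec4e, at -123 and -56, and in Clec4b1, at -68 and -39, and in 28.3% of all, so they were present in 1 higher and 1 lower gene. The NFAT letters GGAAAA were found in all 4 regions and in 23.6% of all. TATAAA was found at -29 in Clec4e, at -29 from the inner start site in Cd209f, which is inside the outer bound of that gene, at -184 on the other strand in Cd209a, not in Clec4b1, and in 14.2% of all. The NF-kB consensus (8.18% of all) and CACGTG, the E-box of MITF (7.24% of all), had no match in these windows. The regions differed in base content, with 50.3% G or C in Cd209f, 44.0% in Cd209a, 40.0% in Clec4e and 32.3% in Clec4b1 against a median of 52.7% over all.

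Of 56 other genes with C-type lectin domains on a list, 7 are named in the tables, and 6 were higher and 1 lower at an adjusted p under 0.05 from limma. All 522 named genes passed that test (341 higher, 181 lower), since they had been selected as changed. Klra2, a Ly49 receptor of myeloid cells, differed most, at 300, 600 and 320 against 50.9, 41.9 and 32.0 in Experiments 1, 2 and 3, which is 9.44-fold. Cd69, an activation antigen of leukocytes, was higher by 4.25-fold and Cd209g by 3.84-fold. Clec5a, a DAP12-coupled receptor of myeloid cells, was higher by 3.03-fold, Ly75, the endocytic receptor DEC-205, by 2.95-fold and Clec4a1 by 2.81-fold. The M-CSF alone values of Klra2, Cd69, Cd209g and Ly75 lay under the dimmest 5% of rows of their arrays, so these folds and their order are not exact. Colec12, a scavenger receptor with a lectin domain, was lower by 3.41-fold. A probe set annotated only as similar to Dectin-1 (LOC100048461), named after its values were seen, was at 434, 365 and 237 with sRANKL against 897, 1026 and 1099. The list's median log2 difference was 1.60 against 1.17 over all named genes, which include the 181 lower ones.

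**Figure D4:**
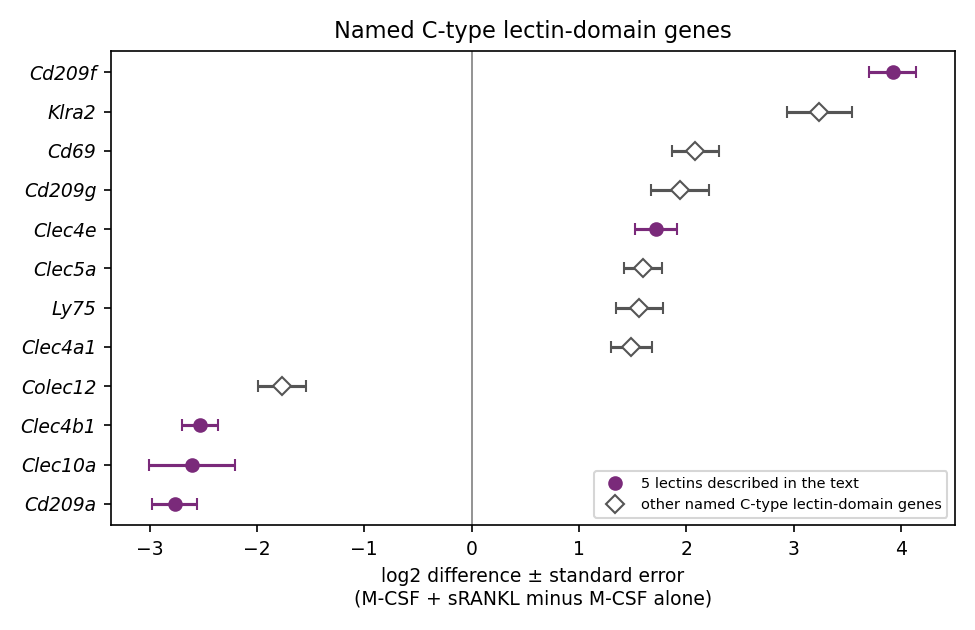
The log2 difference (M-CSF + sRANKL minus M-CSF alone, horizontal axis) with its standard error from limma (n = 3 per group) for the 5 lectins (filled circles) and 7 other named genes with C-type lectin domains (open diamonds). Of these 12 genes, 8 were higher and 4 lower, with Cd209f at 3.92 and Cd209a at -2.77 at the ends.

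Of 32 listed components of lectin receptor signalling, only Fgr and Lsp1 are named. Fgr, a Src-family kinase, was higher by 2.03-fold, and Lsp1, a leukocyte protein that binds actin and the tail of DC-SIGN in human cells, was lower by 2.81-fold. FcRγ, Syk and CARD9 carry no name in the deposited list and were not analysed here. Of 29 listed genes that Syk and CARD9 signals can induce, 14 are named and all 14 were higher, as were 341 of all 522 named genes. Their median log2 difference was 1.80. Over all named genes it was 1.17, a median that includes the 181 lower ones. Genes that did not change could not be named, so nothing was read from these comparisons. Each of the 14 is also induced by other receptors. Il1a, interleukin-1 alpha, was higher by 10.1-fold, Ccl2, a monocyte chemokine, by 9.06-fold, Il6 by 7.90-fold, Cxcl2, a neutrophil chemokine, by 6.99-fold, Gpr84, a receptor for medium-chain fatty acids, by 6.82-fold and Ptgs2, cyclooxygenase-2, by 5.94-fold. Il1a varied widely between experiments, at 765, 369 and 168 with sRANKL against 87.3, 23.5 and 22.7. It was higher by 15.7-fold once the control array of Experiment 1 was left out. Its controls of Experiments 2 and 3 lay under the dimmest 5% of rows of their arrays (83.02 and 75.11), so that fold is not exact. Of 34 other listed glycan-binding, scavenger and pattern recognition receptors 3 are named, and all were higher. They are Siglece, an inhibitory sialic acid receptor, by 6.02-fold, Marco by 32.5-fold and Fpr1, a receptor for formylated peptides, by 34.6-fold. With the control array of Experiment 1, 2 or 3 left out, Marco was higher by 52.6-fold, 23.9-fold and 27.3-fold. Fpr1 was higher by 61.2-fold, 24.7-fold and 27.5-fold in the same order. Their controls of Experiment 2 (60.3 and 64.5) lay under the dimmest 5% of rows of that array (83.0).

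For each lectin the 2 named genes with the most similar log2 values over the 6 arrays were identified by Pearson's r. The arrays form 2 groups, so these values mainly restate the difference between the groups and are given as a description. Cd209f was closest to Acsl1 (r = 0.996), an enzyme that activates long-chain fatty acids, and to Gcnt2 (0.995), a glycosyltransferase. Clec4e was closest to Cd69 (0.998) and to Usp18 (0.996), an interferon-induced protease, and the dishes of Cd69 stood in the same order in the sRANKL group. Cd209a was closest to Klk1 (0.998), a kallikrein, and Lifr (0.996), the receptor for leukemia inhibitory factor. Clec10a was closest to Cbr3 (0.99), a carbonyl reductase, and Pros1 (0.982), protein S. Clec4b1 was closest to Klk1b11 (0.999), another kallikrein, and Galnt12 (0.998), a glycosyltransferase.

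Markers of the cell types that a dish could hold were looked up among the named genes. A marker could be named only if it had been selected as changed, and 341 of the 522 named genes were higher. The counts below are therefore no test of cell content. Of 15 listed osteoclast markers 6 are named and all were higher, with a summed intensity of 5391 to 7376 with sRANKL and 610.2 to 977 without. Among the macrophage markers Apoe, the lipid carrier, was lower by 9.44-fold. Of 16 dendritic cell markers 3 are named. Ciita and H2-Eb1, of antigen presentation, were lower by 2.18-fold and 2.41-fold, whereas Ccr7, a homing receptor, was higher by 5.25-fold. Their sums were 1869 to 3172 with sRANKL and 4456 to 5304 without. Most of each sum was H2-Eb1, at 1393 to 2301 and 4122 to 4933. Of 18 markers of neutrophils and their precursors 6 are named and all were higher, with sums of 6237 to 9836 and 1527 to 2405. Ppbp, of 10 markers of erythroid cells and megakaryocytes, and Dcn, of 9 stromal markers, were higher by 4.11-fold and 2.66-fold. None of the 15 lymphocyte or 8 mast cell and basophil markers is named. No list of markers of monocytes or osteoclast precursors was looked up, so the labelled cell type was not checked. The part of other cells in the lectin values was not tested.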

How the data were processed

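RNA of 6 dishes was hybridised to Affymetrix arrays, 1 array per dish. According to the submitters' processing notes the authors used RMA in R 2.71, and they deposited linear intensities for 2890 probe sets, after a filter that the sources used here do not describe. Names, Entrez numbers and positions come from the authors' deposited list of 656 probe sets (553 with a symbol, 62 updated through RefSeq GRCm38.p6). Its columns of group means, fold changes and p-values were not used. Where a gene had several probe sets the brightest on average was taken, which gave 2859 rows. Columns were assigned by the sample descriptions.

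Log2 intensities were fitted with limma 3.58.1 in R 4.3.3 with no block, and p-values were adjusted by Benjamini-Hochberg over all rows (threshold 0.05). The code was tested on simulated data. Standard errors of the members come from this fit, which does not use the pairing of the dishes. Within-experiment values are differences between partner dishes. Partner dishes came from 1 pool of cells, and their deviations from the means of their groups had correlations of 0.605, 0.564 and 0.645 in Experiments 1, 2 and 3. The members, gene lists and tests were chosen with earlier results of these data known. Named in the text were the 5 members, every named gene of the lectin and receptor lists (the 6 largest differences where a list had more than 12), and the 2 most similar genes of each member. One result of the marker lists is not reported here. RefSeq start regions were found for 4 of the 5 members, Clec10a being the other. With 3 arrays per group, precision is limited. Summaries and plots used Python 3.11.15, pandas 2.3.3 and matplotlib 3.10.9.

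The alternatives were the experiment as a fixed or random block, limma-trend, median centring, quantile normalization, only rows averaging at least 7 on the log2 scale, averaged probe sets, each array left out, all probe sets, and the methods' t-test. Leaving out Experiment 1 and counting identical rows once were chosen after the data were seen.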

Additional observations from a re-analysis of the deposited data

How the results depend on the processing

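The 5 lectins kept their direction in every alternative that was run. Over the 14 alternatives of each, the log2 difference ran from 3.64 to 4.08 for Cd209f, from 1.44 to 1.83 for Clec4e, from -2.96 to -2.59 for Cd209a, from -2.88 to -2.03 for Clec10a and from -2.70 to -2.41 for Clec4b1. Quantile normalization gave 1.44 for Clec4e, the only value that moved by more than the spread between replicates. The direction of the members was fixed by their choice, so this is no sign of stability. The median difference of all rows shifted by -0.15 with median centring and by -0.21 with quantile normalization, both over filtered rows of which most changed. Rising minus falling lectins was 5.09 to 5.62. Leaving out 1 array gave 3.69 to 4.08 for Cd209f, 1.56 to 1.83 for Clec4e, -2.96 to -2.59 for Cd209a, -2.88 to -2.14 for Clec10a and -2.66 to -2.45 for Clec4b1. The smallest Clec10a difference was that without both arrays of Experiment 1. The count of changed rows was 1864 to 2613 against 2235. The replicate block, which gave 2613, left the log2 differences of the lectins as they were, as it must with complete pairs. Its standard errors were smaller, at 0.19 for Cd209f, 0.13 for Clec4e, 0.17 for Cd209a, 0.31 for Clec10a and 0.14 for Clec4b1. No detection calls were used here, so it is not known whether values near the dim end were above background. Among the lectins these were Cd209f without sRANKL, Cd209a and Clec4b1 with it, and Clec10a in Experiment 1 with it. Among other genes they include Klra2, Cd69, Cd209g, Ly75, Il6 and Dcn without sRANKL, and Il1a without it in Experiments 2 and 3. The folds that rest on such values are not exact.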
